A study of Mus musculus with 22 samples.

Results

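The 7 genes studied encode the Fos and Jun subunits of activator protein 1 (AP-1), and they were followed by name through the liver mRNA of newborn mice given AAV9 vectors for human ST3GAL5, the enzyme that makes the ganglioside GM3. The 4 Fos genes are Fos, Fosb, Fosl1 and Fosl2, and the 3 Jun genes are Jun, Junb and Jund. All 7 of the 7 were found among the 55291 genes of the deposited tables. They were picked by name as members of the family, but with earlier results of these data known.

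The livers came from 22 male WT C57BL/6 pups injected into a vein on postnatal day 1 and, by the labels, collected 36 hours later. PBS, AAV9.empty (capsids without a transgene), AAV9.EGFP (EGFP behind the CB promoter) and rAAV9-ST3GAL5.v2 were each given to 4 pups. rAAV9-ST3GAL5.v1 and the E332K vector, labelled like it but with E332K added, were each given to 3. In rAAV9-ST3GAL5.v1 human ST3GAL5 stands behind the CB promoter, which is active in many cell types. In rAAV9-ST3GAL5.v2 it stands behind the neuronal Syn1 promoter, and carries miR-122 sites, miR-122 being abundant in hepatocytes. The human transgene was not analysed here. The labels name no litters, and each p-value therefore reflects only how far these particular livers varied.

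AP-1 is a dimer of basic leucine zipper proteins. Jun proteins pair with each other or with Fos proteins, whereas Fos proteins need a Jun partner to bind DNA, and the pair recognises a short palindrome in promoters and enhancers. Most of the genes belong to the immediate-early response: kinases of the ERK, JNK and p38 pathways act on factors already bound at their promoters, and their short-lived mRNAs rise and fall with stress, cytokines and growth signals. In liver, AP-1 is known for its part in regeneration after injury and in the survival of hepatocytes.

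Libraries held 17164502 to 24305788 expected counts. Markers of hepatocytes (8 genes) summed to 69189 to 80736 CPM (counts scaled to the library's size) with rAAV9-ST3GAL5.v1 and to 103559 to 124236 CPM with AAV9.empty, and all 8 were lower. Markers of neutrophils (10 genes) summed to 2630 to 2914 CPM and to 1751 to 1904 CPM, and all 10 were higher. Of the T and NK cell markers, 5 of 8 tested were higher and 1 lower, with sums of 88.9 to 105 CPM against 39.8 to 55.2 CPM. Macrophage and monocyte markers moved in both directions (4 higher and 6 lower of 14). Of the other lists, 4 of 9 erythroid markers were higher, 1 of 7 endothelial markers was higher and 3 lower, and 1 of 8 stellate and matrix markers was higher and 2 lower. No hepatocyte or neutrophil marker was at 0 in any liver. The part of these shifts in the AP-1 values was not tested, and in whole liver fewer cells of a type and less RNA per cell cannot be told apart.

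The genes lie on 6 chromosomes of GRCm38. Fos is on chromosome 12 (85473890 to 85477273), Fosb on chromosome 7 (19302696 to 19310051), Fosl1 on chromosome 19 (5447547 to 5455946) and Fosl2 on chromosome 5 (32135801 to 32157842). Jun is on chromosome 4 (95049034 to 95052222), and Junb (84974484 to 84978718) and Jund (70698949 to 70700616) share chromosome 8. Each Fos gene has 4 exons in its longest coding transcript and each Jun gene has 1, a form that 6.82% of protein-coding genes have. Of the members, 4 overlap another gene: Fosl1 and Ccdc85b, Jun and Junos, Junb and Prdx2, Jund and Gm11175. The library kit did not keep the strand, so reads from the shared stretches cannot be told apart. Junos had at most 0.431 CPM and Gm11175 at most 5.64 CPM in any liver, whereas Prdx2 had 495 to 775 CPM and Ccdc85b 12.1 to 23.8 CPM.

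Stretches of 120 bases just upstream of the gene are shown for Fos, Fosb, Jun and Junb, which were called higher against PBS with both rAAV9-ST3GAL5.v1 and AAV9.EGFP and whose start sites lay close together in RefSeq and GENCODE. They are RefSeq sequences of GRCm38.p6, read along the gene's own strand, at chr12:85473770-85473889 (plus strand), chr7:19310052-19310171 (minus), chr4:95052223-95052342 (minus) and chr8:84978749-84978868 (minus). Capitals mark TGACG, the core of the site bound by CREB and ATF proteins, or TGACATCA, the variant found at Jun.
Fos: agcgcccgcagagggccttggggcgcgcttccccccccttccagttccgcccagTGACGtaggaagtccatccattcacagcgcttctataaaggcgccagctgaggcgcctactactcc
Fosb: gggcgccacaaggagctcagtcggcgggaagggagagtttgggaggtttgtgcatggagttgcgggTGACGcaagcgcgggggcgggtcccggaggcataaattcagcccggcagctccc
Jun: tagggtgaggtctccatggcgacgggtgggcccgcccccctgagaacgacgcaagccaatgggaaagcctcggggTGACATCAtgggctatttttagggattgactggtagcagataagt
Junb: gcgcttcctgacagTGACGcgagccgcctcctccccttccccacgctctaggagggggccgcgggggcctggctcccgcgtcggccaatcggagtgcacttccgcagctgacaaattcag

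TGACG begins at position -66 from the RefSeq start of Fos (and again at -129, outside the stretch shown), at -60 in Fosb and at -106 in Junb, and TGACATCA begins at -45 in Jun. On either strand, TGACG was present in 20.8% of 32851 RefSeq promoter windows of 300 bases and TGACATCA in 3.62%. TGACG is part of the full palindrome TGACGTCA (1.79% of windows), which was in the window of none of the 6 members in the table. The AP-1 site TGANTCA (7.81% of windows) and the CArG box of serum response factor (1.63%) were in none of the 6 windows either, which says only that those letters are absent there. TATAAA (13.6% of windows) was at -33 in Fos and at 1 in Junb, counted from the RefSeq start. For Junb the GENCODE start (84978718, minus strand) lies further downstream, so positions counted from it would be more negative. Fosl1 had no window in the table.

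Jund made up most of the AP-1 mRNA per unit of length. On the TPM scale, which corrects for transcript length, the 7 genes summed to 97.5 to 127 TPM in the livers given PBS, and Jund was 72.4% ± 3.77 of that sum (SD, n = 4). Junb, a Jun protein that is weak in activation on its own, was 18.3% ± 3.21, Jun 4.46% ± 0.599 and Fos 2.52% ± 0.510.

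With rAAV9-ST3GAL5.v1 the sum was 341, 509 and 331 TPM, above the range of every other group. Junb made up 39.8% ± 5.02 of it and Jund 39.1% ± 3.99 (SD, n = 3), so that Junb reached the level of Jund there. The 4 Fos genes together were 10.1% to 12.5% of the sum with rAAV9-ST3GAL5.v1, 8.79% to 11.1% with AAV9.EGFP and 3.63% to 5.58% with PBS. These shares are a description and were not tested.

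**Figure D1:**
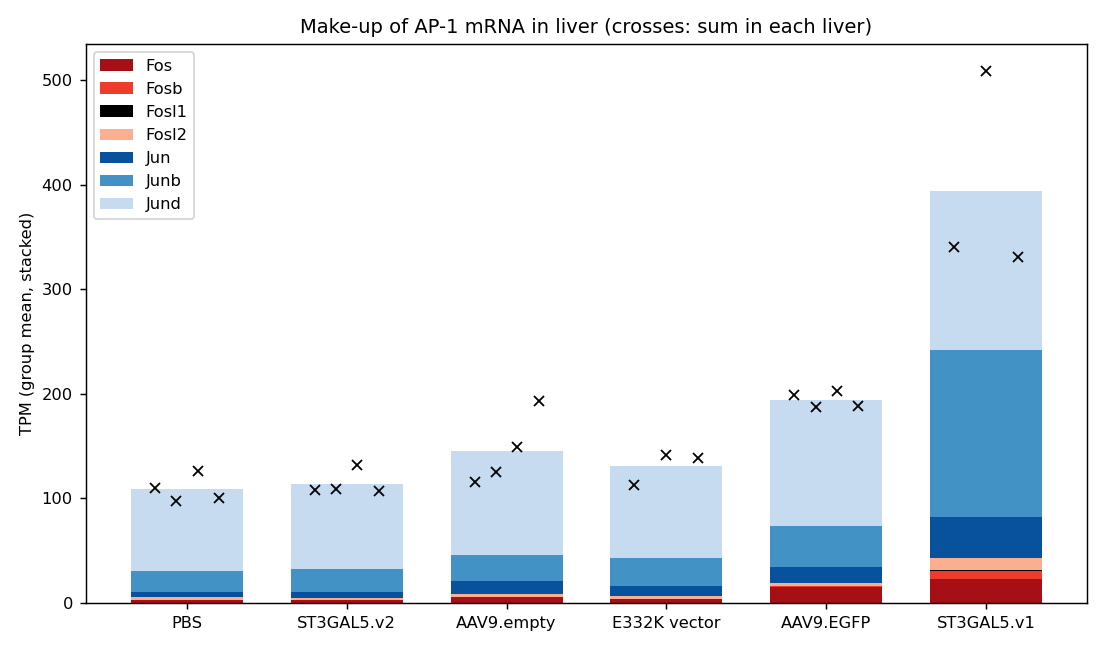
Mean TPM of the 7 AP-1 genes in each treatment group, stacked on an axis that starts at 0, with a cross for the sum in each liver (n = 3 for the E332K vector and rAAV9-ST3GAL5.v1, written ST3GAL5.v1, and n = 4 elsewhere). Jund is the widest band in the PBS bar, and the Junb band is as wide as the Jund band in the ST3GAL5.v1 bar, whose livers sum to 331 to 509 TPM.

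The livers given rAAV9-ST3GAL5.v1 had more mRNA of every member, on average, than the livers given AAV9.empty. The rise ran from 1.44-fold for Jund to at least 45.4-fold for Fosl1. Of the members, 5 (Fos, Fosl2, Jun, Junb and Jund) had enough reads to be tested in every comparison, and all 5 passed here with a median log2 fold change of 1.99, beside 0.025 over all 14876 genes tested. Fosb and Fosl1 passed the filter on low counts only through the rAAV9-ST3GAL5.v1 livers in which they were high, so their calls had to come with a large difference. Of all genes tested, 13.8% were higher at the same threshold, an adjusted p of at most 0.05.

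Fos, the founding member of its family, was at 36.3, 40.0 and 31.8 CPM with rAAV9-ST3GAL5.v1 and at 1.73, 2.20, 12.6 and 20.2 CPM with AAV9.empty. All 3 treated livers lay above all 4 controls, and the controls themselves spread widely, with replicates 3 and 4 high. The log2 fold change was 1.99 (SE 0.659, adjusted p = 0.0497), at the edge of the threshold. It passed in 5 of 10 alternative fits, with adjusted p from 0.00238 to 0.161, and when a single library was left out it passed only without replicate 4 of AAV9.empty (log2 2.72, adjusted p = 0.0172). Without any other library of the 7 the adjusted p was between 0.0592 and 0.117.

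Fosb, known for its stable short splice form deltaFosB, was at 18.6, 23.6 and 13.6 CPM with rAAV9-ST3GAL5.v1 and at 0.374, 0.419, 1.19 and 1.12 CPM with AAV9.empty. That is a log2 difference of 4.60 (SE 0.357, adjusted p = 1.19e-04), the largest among the members with reads in both groups.

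Fosl1, which encodes Fra-1, was nearly silent outside 1 group. It had no count in the 15 livers given PBS, AAV9.empty, the E332K vector or rAAV9-ST3GAL5.v2, and expected counts of 1, 0, 3.2 and 2.01 in those given AAV9.EGFP. With rAAV9-ST3GAL5.v1 it had 50.93, 33.9 and 25.15 expected counts (2.44, 1.67 and 1.01 CPM). A count of 0 has an upper 95% limit of about 3 counts for counting error alone. Against 3 counts over the whole control group, Fosl1 was on average at least 45.4-fold higher than with AAV9.empty (adjusted p = 0.00145). Ccdc85b, which overlaps it on the other strand, was at 15.5, 14.6 and 12.1 CPM in the same 3 livers and at 17.02 to 18.65 CPM with AAV9.empty.

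Fosl2, which encodes Fra-2, was at 54.2, 77.3 and 42.4 CPM with rAAV9-ST3GAL5.v1 and at 10.4, 13.0, 16.0 and 18.9 CPM with AAV9.empty, or 4.01-fold higher (SE 0.235 on the log2 scale, adjusted p = 5.14e-04). It stayed between 10.4 and 19.1 CPM in all 19 livers of the other 5 groups. None of the 10 comparisons among those 5 groups called it, with log2 differences between -0.0028 and 0.21.

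Among the Jun genes Junb moved most. Junb was at 172, 316 and 155 CPM with rAAV9-ST3GAL5.v1 and at 24.4, 28.9, 37.2 and 55.1 CPM with AAV9.empty, on the log2 scale a difference of 2.57 (SE 0.314, adjusted p = 6.28e-04). Replicate 2 of rAAV9-ST3GAL5.v1 stood high, and over all genes it had the lowest median correlation with the other libraries of its group (r = 0.970). Without it the log2 fold change was 2.17, the lowest when single libraries were left out.

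Jun, the founding Jun protein, was at 88.6, 120.1 and 88.5 CPM against 22.9, 18.6, 33.5 and 52.9 CPM, on the log2 scale a difference of 1.64 (SE 0.307, adjusted p = 0.00437). Jund, which is present at rest and changes little with signals, was at 156, 224 and 171 CPM against 118, 124, 127 and 146 CPM. Its log2 fold change was 0.53 (SE 0.130, adjusted p = 0.0157), the smallest of the 7, and without replicate 1 of AAV9.empty the adjusted p was 0.0512.

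**Figure D2:**
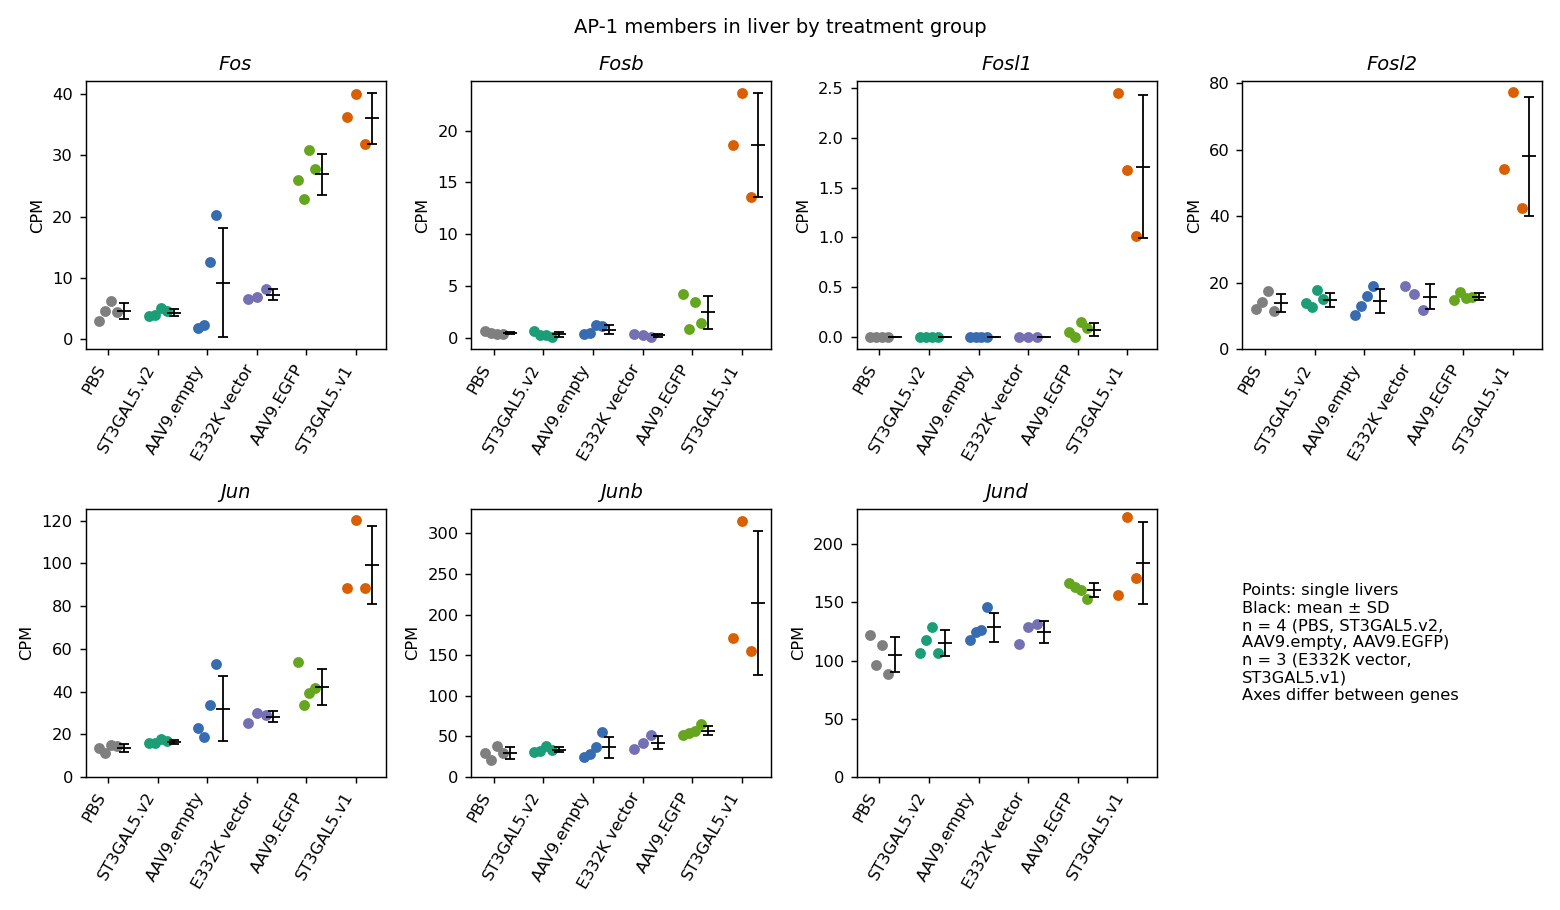
CPM of each AP-1 gene in single livers by treatment group, with the mean and SD in black, on a linear axis of its own for each gene (n = 3 for the E332K vector and ST3GAL5.v1, n = 4 elsewhere). The ST3GAL5.v1 livers lie above all others for all genes but Jund; Fos and Jun are raised with AAV9.EGFP as well, and Fos spreads from 1.73 to 20.2 CPM with AAV9.empty.

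The comparisons of rAAV9-ST3GAL5.v1 with the other groups share those 3 livers and are not independent of the one above. In these 4 comparisons 3 to 8 of 8 hepatocyte markers were lower and 3 to 9 of 10 neutrophil markers higher, and their part in the result was not tested. Against PBS, Fos was 8.07-fold higher (log2 3.01, SE 0.210, adjusted p = 2.12e-05) and Jun 7.33-fold (log2 2.87, SE 0.145, adjusted p = 4.19e-06), and all 5 members with reads in every comparison were called (12.4% of all genes were higher). Junb (log2 2.87, SE 0.267), Fosl2 (2.07, SE 0.210) and Jund (0.82, SE 0.147) were also higher, and Fosb, tested through the treated livers, differed by 5.26 (SE 0.254). The PBS livers were tight, at 2.92, 4.59, 6.14 and 4.32 CPM for Fos and 13.4, 11.4, 15.2 and 14.5 CPM for Jun. Against the E332K vector, which shares the promoter, the same 5 were called (9.55% of all genes were higher). Fosb (log2 6.23, SE 0.392) and Fos (log2 2.36, SE 0.151) had the smallest p-values of the 14742 genes tested, both at an adjusted p of 8.04e-04, but Fosb entered this test only through the rAAV9-ST3GAL5.v1 livers in which it was high. The call of Jund in that comparison (log2 0.59, adjusted p = 0.0306) was lost whenever 1 of the 3 E332K libraries was left out, at adjusted p of 0.0710 to 0.110.

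Against rAAV9-ST3GAL5.v2 the 5 were called as well (12.1% of all genes were higher). Fos (log2 3.09, SE 0.142) and Jun (log2 2.60, SE 0.131) ranked 1 and 2 by p among 14906 genes, at an adjusted p of 2.37e-05. Junb (log2 2.71, SE 0.236), Fosl2 (1.98, SE 0.202) and Jund (0.70, SE 0.140) were higher too, and Fosb differed by 5.85 (SE 0.400). Fosl1, at 0 in the control livers, was at least 48.2-fold higher than with PBS, 32.1-fold higher than with the E332K vector and 42.3-fold higher than with rAAV9-ST3GAL5.v2.

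Against AAV9.EGFP, 4 of the 5 were called (12.7% of all genes were higher). Fosl2 (log2 1.88, SE 0.181), Junb (1.90, SE 0.227) and Jun (1.24, SE 0.162) were called, and Fosb, at 0.866 to 4.20 CPM with AAV9.EGFP, differed by 2.91 (SE 0.427, adjusted p = 0.00175). Fos differed by 0.42 (SE 0.121, adjusted p = 0.0298), lost without any of 5 of the 7 libraries (log2 0.34 to 0.44, adjusted p of 0.0603 to 0.0827), and Jund by 0.19 (95% interval -0.071 to 0.46, adjusted p = 0.249).

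Livers given AAV9.EGFP had more Fos, Jun, Junb and Jund mRNA than livers given PBS, by 1.54-fold to 6.02-fold. Fos was at 26.1, 22.9, 30.9 and 27.8 CPM with AAV9.EGFP, every liver above the PBS range, on the log2 scale a difference of 2.59 (SE 0.176, adjusted p = 5.33e-07). Jun was at 53.7, 33.9, 39.3 and 41.6 CPM (log2 1.64, SE 0.133, adjusted p = 5.12e-06). Junb was at 52.3, 54.5, 56.8 and 65.6 CPM against 29.2, 20.7, 38.4 and 29.6 CPM with PBS (log2 0.96, SE 0.141, adjusted p = 0.00114).

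Jund was at 167, 163, 161 and 153 CPM against 122, 96.4, 114 and 88.7 CPM with PBS (log2 0.62, SE 0.0942, adjusted p = 0.00155). Of all genes, 2.44% were higher in this comparison. Fosb was uneven, at 4.20, 0.866, 3.45 and 1.40 CPM against 0.630, 0.505, 0.394 and 0.407 CPM (log2 2.35, SE 0.475, adjusted p = 0.0120), and without replicate 3 of PBS its adjusted p was 0.05004. It passed the filter through the AAV9.EGFP livers. Fosl2 (log2 0.20, adjusted p = 0.480) was not called. Of the cell markers, no hepatocyte, neutrophil or macrophage gene was called between these 2 groups, while 3 of 8 stellate and matrix genes, 1 of 8 T and NK cell genes and 1 of 7 endothelial genes were higher and 1 of 9 erythroid genes lower, and their part in the result was not tested.

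Against AAV9.empty, no member was called with AAV9.EGFP by edgeR (0.442% of all genes were called, in either direction), and DESeq2 called Jund alone. Of the 5 members tested in every comparison, Fos, Junb and Jund had an unadjusted p under 0.05 in edgeR, beside 12.5% of all genes. Fosb did too, but it passed the filter on low counts through the AAV9.EGFP livers. The differences were 1.56 for Fos (SE 0.509, adjusted p = 0.230), 1.68 for Fosb (adjusted p = 0.203), 0.66 for Junb (adjusted p = 0.170) and 0.32 for Jund (SE 0.0714, adjusted p = 0.0753). Fos was at 22.9 to 30.9 CPM with AAV9.EGFP and at 1.73 to 20.2 CPM with AAV9.empty. Jund was at 153 to 167 CPM and at 118 to 146 CPM. Without replicate 4 of AAV9.empty, Junb (log2 0.93, adjusted p = 0.00318) and Jund (log2 0.39, adjusted p = 0.0130) were called.

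Some members were also higher with AAV9.EGFP than with the ST3GAL5 vectors other than rAAV9-ST3GAL5.v1. Fosl2 was called in neither comparison (log2 -0.0028 against the E332K vector, 0.081 against rAAV9-ST3GAL5.v2). Nor was Junb called against the E332K vector (0.44, adjusted p = 0.0529) or Fosb against rAAV9-ST3GAL5.v2 (2.92, adjusted p = 0.0695). Against rAAV9-ST3GAL5.v2, Fos (log2 2.65, SE 0.132, adjusted p = 1.54e-06) had the smallest p of 14528 genes, of which 0.22% were higher. Jun (1.35, adjusted p = 4.90e-04), Junb (0.78, adjusted p = 0.00465) and Jund (0.49, adjusted p = 0.0318) followed, and the call of Jund was lost without any of 6 of the 8 libraries, with an adjusted p of up to 0.0991. Against the E332K vector (3.65% of all genes were higher), Fos (1.92, adjusted p = 5.97e-06), Fosb (3.31, adjusted p = 0.0101), Jun (0.59, adjusted p = 0.0228) and Jund (0.38, adjusted p = 0.0211) were called. Fosb passed the filter there through the AAV9.EGFP livers. Of the cell markers, 3 of 8 stellate and matrix genes, 2 of 8 hepatocyte genes and 1 of 14 macrophage and monocyte genes were higher and 1 of 9 erythroid genes lower against the E332K vector, and 2 of 14 macrophage and monocyte genes were higher against rAAV9-ST3GAL5.v2, and their part in the result was not tested. The call of Jun was lost without replicate 4 of AAV9.EGFP or replicate 1 of the E332K vector (adjusted p of up to 0.0872), and that of Jund without replicate 1, 2 or 3 of AAV9.EGFP or replicate 1 of the E332K vector (up to 0.0825).

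**Figure D3:**
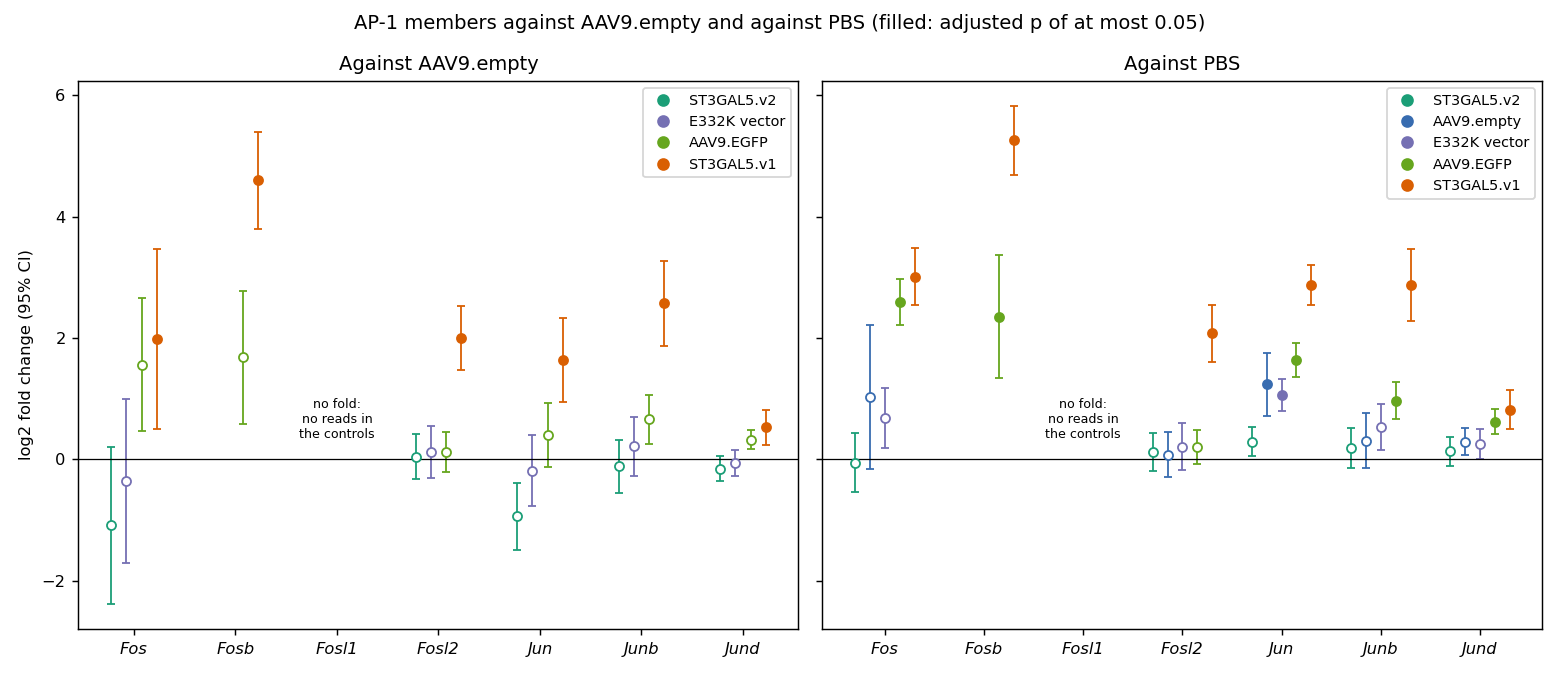
log2 fold change with its 95% confidence interval for each AP-1 gene against AAV9.empty (left) and PBS (right), from edgeR, with filled points at an adjusted p of at most 0.05. Points of Fosb are missing where it did not pass the filter on low counts, and Fosl1 is left out because the controls had no count. The intervals of Fos against AAV9.empty are wider than those against PBS, as for ST3GAL5.v1, 0.50 to 3.47 against 2.55 to 3.48.

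The empty capsid was followed by 1 called change. Jun was at 18.6 to 52.9 CPM with AAV9.empty and at 11.4 to 15.2 CPM with PBS, with no overlap, on the log2 scale a difference of 1.23 (SE 0.243, adjusted p = 0.0465). It was 1 of 15 genes called higher, 0.104% of those tested. The call held in 5 of 10 alternative fits (adjusted p from 1.38e-05 to 0.366) and was lost without replicate 2, 3 or 4 of PBS or replicate 3 or 4 of AAV9.empty, with log2 values of 0.88 to 1.29. In all 6 members with reads, replicates 3 and 4 of AAV9.empty were above replicates 1 and 2. Fos itself differed by 1.03 (SE 0.558, adjusted p = 0.473), with overlapping livers.

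No member was called between the E332K vector and the empty capsid. Fos was at 6.51, 6.88 and 8.23 CPM, Jun at 25.4, 30.0 and 29.2 CPM and Junb at 34.5, 41.6 and 51.4 CPM, all within the AAV9.empty range. None of the 5 members tested was called against AAV9.empty by edgeR or by DESeq2, none had an unadjusted p under 0.05 (30.4% of all genes), and 15% of all genes were called in either direction. The interval for Fos was wide, from -1.72 to 0.99 (log2 -0.36), whereas that for Jund was -0.27 to 0.16 (log2 -0.057). Fosb, not tested for lack of reads, was at 0.350, 0.299 and 0.0614 CPM, below every AAV9.empty liver. Jund was at 114, 129 and 131 CPM and Fosl2 at 19.1, 16.7 and 11.8 CPM, both overlapping the AAV9.empty livers.

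Against PBS, Jun was higher with the E332K vector (log2 1.06, SE 0.125, adjusted p = 1.23e-04), a call kept without each of the 7 libraries in turn, and 6.97% of all genes were higher. In that comparison 3 of 8 T and NK cell markers, 1 of 10 neutrophil and 1 of 7 endothelial markers were higher, and 3 of 8 hepatocyte and 2 of 14 macrophage and monocyte markers lower, and their part in the result was not tested. Fos (log2 0.68, adjusted p = 0.0727) and Junb (log2 0.53, adjusted p = 0.0746) were not called, but both were called once replicate 3 of PBS was left out (adjusted p of 0.0340 and 0.0363). Jun was also higher than with rAAV9-ST3GAL5.v2 (log2 0.76, SE 0.101, adjusted p = 0.00328), where 1.65% of all genes were higher. This call was kept without each of the 7 libraries in turn. It was lost with all groups in one fit, the replicate block, the 3 limma fits and a fold change of at least 2.

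No member was called between rAAV9-ST3GAL5.v2 and PBS. Fos was at 3.73, 3.91, 4.997 and 4.52 CPM, a log2 difference of -0.059 from PBS with an interval of -0.55 to 0.43. Jun was at 15.8, 15.8, 17.8 and 16.9 CPM, every liver above the PBS range but by a log2 fold change of 0.29 (95% interval 0.046 to 0.54, adjusted p = 0.198). None of the 5 members tested was called by edgeR or by DESeq2, and 2.9% of all genes were called in either direction. At an unadjusted p under 0.05 there was 1 of 5, Jun, beside 17.2% of all genes. Junb was at 30.3, 32.4, 37.8 and 33.1 CPM and Jund at 106, 118, 129 and 106 CPM, with livers that overlapped those given PBS. Fosb, at 0.0993 to 0.693 CPM, was not tested.

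Against AAV9.empty none of the 5 was called by edgeR or DESeq2 either (5.38% of all genes in either direction), and Jun alone had an unadjusted p under 0.05 (1 of 5 members, beside 22.4% of all genes). Jun was lower in every liver, by -0.94 (SE 0.253), and its adjusted p of 0.05003 lay just above the threshold. It passed in 4 of 10 alternative fits (adjusted p of 0.0141 to 0.200) and without replicate 2 of AAV9.empty (0.0368).

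**Figure D4:**
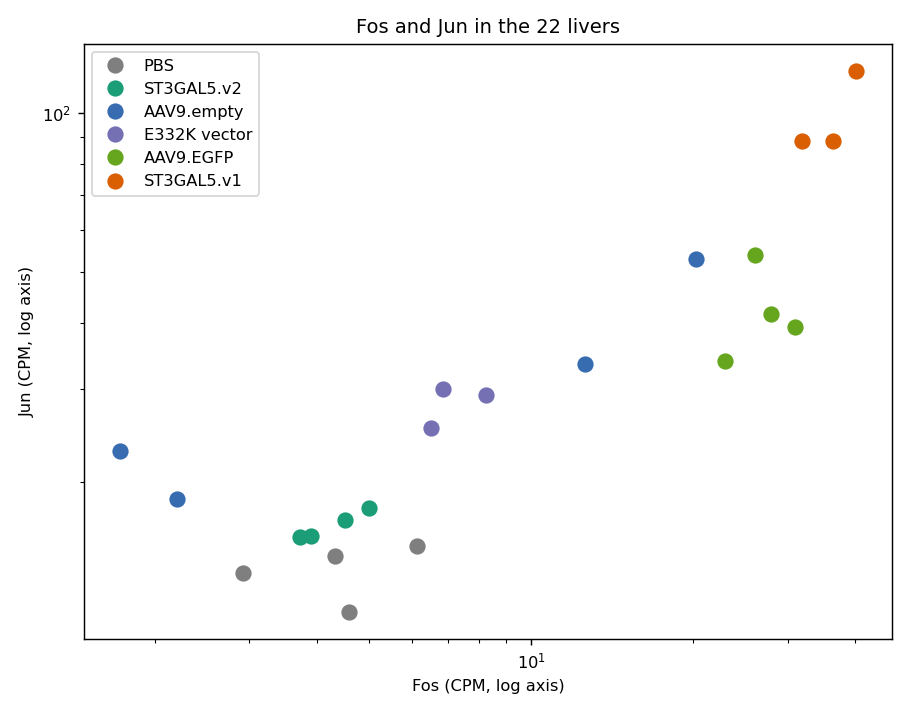
Jun against Fos in each of the 22 livers (CPM, both axes logarithmic), coloured by treatment group. The PBS and ST3GAL5.v2 livers sit together at the lower left, ST3GAL5.v1 is alone at the top with Jun at 88.5 to 120.1 CPM, and the AAV9.empty livers run from the lower left towards the AAV9.EGFP livers.

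Ordered by mean CPM, Fos ran from rAAV9-ST3GAL5.v2 (4.29) through PBS (4.49), the E332K vector (7.20), AAV9.empty (9.18) and AAV9.EGFP (26.9) to rAAV9-ST3GAL5.v1 (36.1). Of the 5 neighbouring pairs in that order, only the last was called. Jun ran from PBS (13.6) and rAAV9-ST3GAL5.v2 (16.6) through the E332K vector (28.2), AAV9.empty (31.995) and AAV9.EGFP (42.1) to rAAV9-ST3GAL5.v1 (99.1), with calls from rAAV9-ST3GAL5.v2 to the E332K vector and from AAV9.EGFP to rAAV9-ST3GAL5.v1. Junb ran from 29.5 CPM with PBS to 57.3 CPM with AAV9.EGFP without a call between neighbours and then to 214 CPM with rAAV9-ST3GAL5.v1. Jund ran from 105 CPM with PBS to 184 CPM with rAAV9-ST3GAL5.v1 in steps of which none was called. The neighbours that were not called are not thereby shown to be alike.

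Other genes of the pathway were taken from lists, with counts for rAAV9-ST3GAL5.v1 against AAV9.empty (13.8% of all genes were higher). Of 12 leucine zipper proteins that can pair with AP-1 subunits, 7 were higher, with a median log2 fold change of 0.70. Atf3, a stress-induced repressor and activator, rose by 4.02 on the log2 scale (SE 0.305, adjusted p = 1.14e-04), from a mean of 3.09 CPM to 50.05 CPM. The small Maf proteins Maff (2.58, SE 0.273) and Mafk (1.21, SE 0.183) rose.

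Of 16 kinases of the ERK, JNK, p38 and ERK5 modules, which act on AP-1, 6 were higher and 2 lower, with a median of 0.043. Of all genes, 13.8% were higher and 14.3% lower in this comparison. The 4 kinases with the smallest p were Mapk7, which encodes ERK5 (0.46, SE 0.0971), Map3k5 (ASK1; 0.49, SE 0.112), Map2k1 (MEK1; 0.43, SE 0.105) and Map3k7 (TAK1; 0.31, SE 0.0820). The lower kinases were Mapk3 (ERK1; -0.38, SE 0.107) and Map2k6 (MKK6; -1.23, SE 0.394). Factors that sit on the Fos and Jun promoters gave 4 higher and 1 lower of 10, with Srf (0.60, SE 0.103), Mef2d (0.42, SE 0.0742), Crem (0.80, SE 0.168) and Mrtfa (0.36, SE 0.0934) higher and Elk3, a repressor in its resting state, lower (-0.47, SE 0.126).

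The dual-specificity phosphatases that remove phosphate from MAP kinases gave 8 higher and none lower of 10, with a median of 0.89. Dusp5, a nuclear ERK phosphatase, rose by 2.83 (SE 0.283), Dusp4 by 2.26 (SE 0.257), Dusp8 by 1.29 (SE 0.119) and Dusp6 by 0.96 (SE 0.131), all on the log2 scale. Of 10 genes for the decay of AP-1 mRNA and the turnover of its proteins, 3 were higher: Zfp36, which encodes tristetraprolin, a protein that binds AU-rich 3′ UTRs (1.68, SE 0.355), Zfp36l1 (0.53, SE 0.121) and Fbxw7, a ubiquitin ligase subunit for Jun (0.34, SE 0.107). The TTATTTATT nonamer that tristetraprolin is known to bind occurred once in the 3′ UTR of Fos and once in that of Fosl2, in none of the other 5 members, and in 7.58% of 20945 protein-coding genes.

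Of 18 genes known as AP-1 targets, 15 could be tested, 12 were higher and none lower, with a median of 1.96. Timp1, an inhibitor of matrix proteases, rose from a mean of 1.47 CPM to 51.1 CPM (5.12, SE 0.218, adjusted p = 8.41e-06), and Lif, a cytokine of the IL-6 family, by 5.99 (SE 0.339). Sprr1a, a cornified-envelope protein seen in injured tissue, rose by 7.78 (SE 0.478), and Spp1, which encodes osteopontin, by 1.96 (SE 0.181). Low genes such as Lif and Sprr1a passed the filter through the group in which they were high. The count of 12 and the median of 1.96 include such genes.

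Some of these genes moved with the E332K vector against AAV9.empty, where none of the 5 members tested was called. Jun was called higher with that vector against PBS (log2 1.06) and against rAAV9-ST3GAL5.v2 (log2 0.76). Against AAV9.empty, Atf3 rose by 2.77 (SE 0.402, adjusted p = 7.71e-04), Timp1 by 3.62 (SE 0.243, adjusted p = 1.82e-06), Lif by 3.82 (SE 0.373) and Sprr1a by 3.60 (SE 0.643) on the log2 scale, and 4 of 13 targets tested were higher, Plaur included (0.69, SE 0.143), beside 7.93% of all genes. In that comparison 4 of 8 hepatocyte markers were lower and 5 of 10 neutrophil markers higher, and their part in the result was not tested. With AAV9.EGFP, against PBS, 2 of 12 targets tested were higher, Lif (3.85, SE 0.512) and Ccnd1 (0.96, SE 0.148), beside 2.44% of all genes. Of the 10 genes for decay and turnover, 1 was higher, Zfp36 (1.10, SE 0.138). Of the 10 phosphatases, 3 were higher, with a median of -0.062 over the list: Dusp5 (1.22, SE 0.141), Dusp1 (0.77, SE 0.101) and Dusp6 (0.47, SE 0.0911). Of the 18 targets, 11 were tested between AAV9.empty and PBS. Low genes such as Lif and Sprr1a could thus enter the counts above through the group in which they were high. Whether any gene responds differently to 2 vectors was tested only where those vectors were compared with each other.

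**Figure D5:**
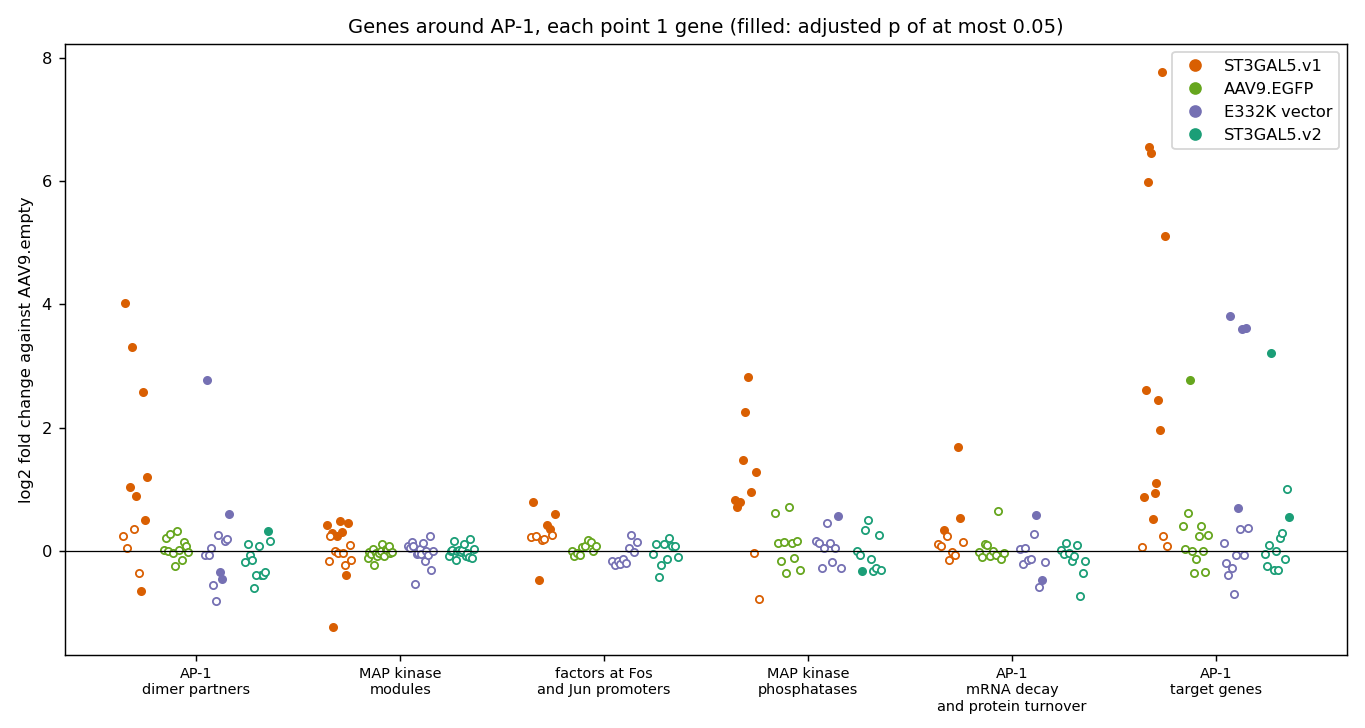
log2 fold change of single genes in 6 lists around AP-1, for 4 vectors against AAV9.empty, with filled points at an adjusted p of at most 0.05. The ST3GAL5.v1 points rise to 7.78 among the targets (Sprr1a) and to 4.02 among the dimer partners (Atf3), and fall to -1.23 among the kinases (Map2k6).

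Deviations from the group mean, on the scale of log2(CPM + 0.5) over the 22 livers, correlated for Fos with those of Rgs1 (r = 0.95), Jun (r = 0.82) and Srsf6 (r = 0.81), the 3 highest of 13516 genes. The 4 AAV9.empty livers held 91.2% of the squared deviations of Fos and 71.9% of those of Jun, so these values describe mainly that group. For Jun the 3 highest were Hilpda (0.87), Zfp36 (0.86) and Fos, and for Junb they were Zfp36 (0.85), Dlgap4 (0.83) and Slc25a28 (0.81). Fosl2 went with Klf6 (0.83), Appl2 (0.82) and Gimap5 (0.81), and Jund with Rhob (0.80), Cebpb (0.80) and Ess2 (0.78).

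Fosb went with 6330403L08Rik (0.80), Tmem65 (0.73) and Galnt18 (0.71). Its deviations were less like those of Jun (0.53), Fos (0.41), Fosl2 (0.32), Jund (0.24) and Junb (0.20). The AAV9.EGFP livers held 53.4% of the squared deviations of Fosb, and the AAV9.empty livers 19.4%. These correlations are descriptions over 22 libraries. Livers of a group share its mean, and both genes of a pair share each library's depth.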

How the data were processed

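Per the labels and the methods, the authors trimmed reads with Trimmomatic, aligned them to mm10 with STAR and quantified GENCODE genes with RSEM (versions not given in the sources used here). They deposited expected counts, which are estimates of reads per gene not scaled for depth, and TPM, corrected for transcript length. Expected counts (5.69% not whole) were rounded. Pairs of groups, 15 in all, were fitted separately in R 4.3.3 with edgeR 4.0.16: TMM, filterByExpr, the quasi-likelihood F-test and Benjamini-Hochberg adjustment over all genes tested. CPM uses TMM over the 22 libraries. The test was also run on counts simulated for rAAV9-ST3GAL5.v1 and for AAV9.EGFP, each against AAV9.empty. The outcome is not given here, and the other pairs were not simulated.

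The members and lists were chosen with earlier results of these data known. The genes named are the 7 members, up to 4 genes per list with the smallest adjusted p for rAAV9-ST3GAL5.v1 against AAV9.empty, list members beside a count of 5 or fewer, and the 3 genes most like each member. Members of the lists called with the E332K vector or AAV9.EGFP were named after their values were seen. Mrtfa was listed under its older symbol. Positions come from GENCODE vM21, and promoters from RefSeq. Alternatives were DESeq2 1.42.0, limma 3.58.1 on TPM, other filters, size factors and dispersions, all groups in one fit, a replicate block and each library left out; the last was added for 7 pairs after the data were seen. The result of 1 gene of the dimer partner list is not reported here.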

Additional observations from a re-analysis of the deposited data

How the results depend on the processing

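Of the calls for single members in the 8 main comparisons, 260 of 272 repeats under other settings kept direction and call, 12 lost the call and none changed direction. The lost calls were those of Fos against AAV9.empty and AAV9.EGFP with rAAV9-ST3GAL5.v1 and of Jun with AAV9.empty. The setting with a fold change of at least 2 is not among these repeats. With rAAV9-ST3GAL5.v1 it lost Jund against AAV9.empty, the E332K vector and rAAV9-ST3GAL5.v2, and Fos against AAV9.EGFP. With single libraries left out, 170 of 190 were kept and 20 lost.

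The number of members called with AAV9.EGFP against AAV9.empty, 0, became 1 with DESeq2, with a robust dispersion (Jund in both) and with the replicate block (Junb). It was 0 to 2 with a library left out, 2 without replicate 4 of AAV9.empty. With rAAV9-ST3GAL5.v2 in place of AAV9.EGFP 0 became 1, Jun, with median-of-ratios factors, no filter, all groups in one fit or the replicate block, and was 0 to 1 with a library left out. For AAV9.empty against PBS 1 became 0 with a mean count of at least 10, a robust dispersion and the 3 limma fits, and was 0 to 1 with a library left out. For the E332K vector against AAV9.empty 0 became 1 (Junb) with the replicate block. The 22 calls in the other 7 pairs became 14 with a fold change of at least 2, 15 to 17 with the limma fits and 18 with all groups in one fit. They became 25 with DESeq2 and 26 with no filter. For AAV9.EGFP against the E332K vector 4 became 2 with all groups in one fit or the replicate block, and 1 to 2 with limma. With a library left out, the E332K vector against PBS gave 1 to 3 and AAV9.EGFP against the E332K vector 2 to 5, with 2 without replicate 1 of the E332K vector.

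Same-numbered livers did not deviate together in every pair (r from -0.201 to 0.299). The replicate block, in which numbers shared by the labels alone stand for pairs, gave 21 calls in the other 7 pairs and lost Fos against AAV9.EGFP with rAAV9-ST3GAL5.v1 (adjusted p = 0.115). Directions turned only for members not called. For the E332K vector against AAV9.empty, the block gave 0.85 for Fos, 0.20 for Jun and 0.0077 for Jund, and limma on TPM gave -0.083 (pseudocount 1, with or without the filter) and -0.11 (pseudocount 0.1) for Fosl2 and 0.14 for Fos (pseudocount 0.1). Limma gave for Fosl2 with rAAV9-ST3GAL5.v2, against AAV9.empty, -0.10, -0.13 and -0.10. The cause was not tested. With a library left out, the ranges for the E332K vector were -0.71 to 0.38 (Fos), -0.027 to 0.30 (Fosl2), -0.37 to 0.16 (Jun) and -0.094 to 0.012 (Jund); for rAAV9-ST3GAL5.v2 -0.092 to 0.19 (Fosl2) and -0.27 to 0.15 (Junb); and for Fosl2 -0.016 to 0.27 with AAV9.EGFP against AAV9.empty and -0.082 to 0.21 with AAV9.empty against PBS. Limma on TPM, with no further scaling, moved the median of all genes by -0.120 to 0.197, and DESeq2 by -0.0242 to 0.0374.

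Groups of 3 or 4 livers leave Fos against AAV9.empty undecided within a log2 interval of 0.50 to 3.47, and Fosl1 rests on 25.15 to 50.93 expected counts per liver. The lower bounds for Fosl1 cover counting error only.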
